A study of Mus musculus with 6 samples.

Results

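The 10 genes described here, Efnb2, Bmx, Gja4, Gja5, Gkn3 and Unc5b on the arterial side and Ephb4, Nr2f2, Vwf and Slc38a5 on the venous side, were taken by name as genes known to mark arterial or venous endothelial cells (ECs), out of 20822 genes counted in single cells of the mouse retina. They were measured in retinas at postnatal day 14 of oxygen-induced retinopathy (OIR), a model in which young mice are kept in high oxygen, lose part of their retinal vessels and regrow them after return to room air. The groups were eNOS+/+ mice (C57BL/6J) and eNOS-/- mice, homozygous for a knockout allele of Nos3 in all cells, and both groups went through OIR at the same age. Each group had 3 replicates with 3 to 5 retinas pooled in each, and no single animal can be told from another within a replicate. Cells were enriched with beads coated with antibodies to CD31, a surface protein of ECs, and sequenced by Drop-seq, which counts the 3′ ends of captured RNA molecules by their unique molecular identifiers (UMIs).

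Arteries and veins are set apart in the embryo before they carry much flow. In arterial ECs, VEGF, Notch and SOX factors act upstream of Efnb2, which encodes the membrane ligand ephrin-B2. In venous ECs, the nuclear receptor COUP-TFII, encoded by Nr2f2, holds Notch signalling down, and the receptor EphB4, which binds ephrin-B2, is made. In the regrowing retina, sprouts led by tip cells extend from veins and capillaries, and some of their cells later join arteries.

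Bmx encodes a cytoplasmic tyrosine kinase of arterial endothelium, Gja4 and Gja5 encode connexin 37 and connexin 40, the gap junction proteins of arterial ECs, Gkn3 is a marker of large arteries, and Unc5b encodes a receptor of netrin and Robo4 in arteries, capillaries and tip cells. Vwf encodes von Willebrand factor, which is stored in ECs and is highest in veins, and Slc38a5 encodes an amino acid transporter of veins and capillaries of the central nervous system. In the GENCODE annotation of GRCm38, Bmx lies at chrX:164192842-164258193, Gja4 at chr4:127311421-127314039 and Nr2f2 at chr7:70351944-70366735, all on the minus strand. These are the 3 genes on which the genotype comparison below turns, and their promoters are shown for that reason. RefSeq gave a promoter for 9 of the 10 genes (build GRCm38.p6). The 250 bases before the start site are printed 5′ to 3′ on the strand of the gene, for Bmx chrX:164258194-164258443, for Gja4 chr4:127314040-127314289 and for Nr2f2 chr7:70366747-70366996, with the matches to searched motifs in capitals.
Bmx: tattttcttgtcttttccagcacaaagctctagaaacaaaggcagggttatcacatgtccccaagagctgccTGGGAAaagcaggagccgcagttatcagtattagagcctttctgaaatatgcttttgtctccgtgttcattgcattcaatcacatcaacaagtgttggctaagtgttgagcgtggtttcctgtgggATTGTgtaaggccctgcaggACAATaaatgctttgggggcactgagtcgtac
Gja4: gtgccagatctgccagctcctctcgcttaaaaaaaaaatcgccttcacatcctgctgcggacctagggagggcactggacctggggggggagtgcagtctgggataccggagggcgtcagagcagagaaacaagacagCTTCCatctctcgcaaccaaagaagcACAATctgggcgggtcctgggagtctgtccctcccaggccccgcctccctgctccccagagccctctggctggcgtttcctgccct
Nr2f2: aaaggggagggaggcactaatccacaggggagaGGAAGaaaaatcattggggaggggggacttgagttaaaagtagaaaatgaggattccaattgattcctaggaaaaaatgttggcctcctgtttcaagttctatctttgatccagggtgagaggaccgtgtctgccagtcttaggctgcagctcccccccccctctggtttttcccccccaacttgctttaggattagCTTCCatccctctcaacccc
Searched on both strands were TGGGAA, the core bound by RBPJ, the DNA-binding partner of Notch, GGAAG, a core of ETS factors, ACAAT, a core of SOX factors, and AGGTCA, the half-site of many nuclear receptors. TGGGAA overlaps GGAA of the ETS core by its last letters. The Bmx promoter held TGGGAA at -178 to -173 from the start site and the SOX core at -52 to -48 and at -32 to -28. The Gja4 promoter held the ETS core at -112 to -108 and the SOX core at -86 to -82, and the Nr2f2 promoter held the ETS core at -217 to -213 and at -20 to -16. Such matches are common: TGGGAA was found in 21.6% of 32851 promoters of the same length, GGAAG in 64.1%, ACAAT in 27.7% and AGGTCA in 14.0%. Of the 9 promoters, 2 held TGGGAA, 4 GGAAG, 2 ACAAT and 0 AGGTCA. They are descriptions of letters, not of bound sites.

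The deposited annotation labelled 5925 of 8944 cells as ECs: 1428 Tip ECs, 3335 Structural ECs (labelled only ECs in the annotation) and 1162 Proliferative ECs. Mural cells, the pericytes and smooth muscle cells around the vessels, were 214. The 11 EC markers together reached 6974 to 10095 counts per 1000000 UMIs (CPM) in the EC sums, with every marker detected in every Tip and Structural sum, and 891 to 3798 CPM in mural cells. The 9 mural markers reached 10951 to 29486 CPM in mural cells. A sum per replicate held 142593 to 715593 UMIs in Tip ECs, 246958 to 1145608 in Structural ECs, 78192 to 668540 in Proliferative ECs and 11323 to 96487 in mural cells, of which eNOS+/+ replicate 1 had only 3. Of the 15 pairs of replicates, 3 shared 1 cell barcode each. Many barcodes of a replicate differed only in their last base, and 4416 ECs were left when such a family was counted as 1 cell.

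eNOS-/- replicate 3 stood apart. Its Structural ECs held 4230 CPM of the 9 mural markers, with none of the 9 at 0, against 35.8 to 165 CPM in the other replicates. Of its 186 Structural ECs, 38 (20.4%, with 39.4% of the UMIs) held UMIs of at least 2 mural markers, against at most 1.23% of Structural ECs elsewhere. With such cells left out of every replicate, its Structural ECs still held 611 CPM of mural markers, against 12.3 to 154 CPM in the others. All its ECs together still held 399 CPM, against 11.7 to 87.2 CPM. The 38 cells also held 114 of the 255 Pecam1 UMIs and 156 of the 510 Cldn5 UMIs of its Structural ECs. Smooth muscle markers reached 415 CPM in these ECs and 44.5 to 87.6 CPM in the others, and red blood cell markers 34.9 CPM in eNOS+/+ replicate 1 against 4432 to 22522 CPM in the other 5. Nos3 itself was at 19.4, 36.6 and 23.6 CPM in the ECs of the eNOS+/+ replicates and at 21.2, 16.1 and 32.8 CPM in those of the eNOS-/- replicates. These overlapping values do not check the genotype labels, since the 3′ ends counted need not touch the deleted part of the gene.

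By mean level, the arterial genes except Unc5b were highest in Structural ECs, though Gja5 and Gkn3 had few UMIs, and Unc5b was highest in Tip ECs. Of the venous genes, Vwf was highest in Tip ECs and Ephb4, Nr2f2 and Slc38a5 in Proliferative ECs. Not all of these orders held in each replicate. Gja4 and Bmx were highest in Structural ECs, Vwf in Tip ECs and Slc38a5 in Proliferative ECs in each of the 6 replicates. The labels came from clustering these same cells, so the levels by label are a description and were not tested. With only cells of at least 500 UMIs, Vwf kept its place in 6 of 6 replicates and the other 3 genes in 5 of 6. In sums of this kind, fewer cells of a type and less RNA per cell cannot be told apart.

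Gja4 had the steepest pattern among the arterial genes. It stood at 15.6 ± 8.20 CPM in Tip, 162 ± 40.4 CPM in Structural and 77.7 ± 40.5 CPM in Proliferative ECs (mean ± SD, n = 6 replicates, as for all levels by label). By replicate, Tip ECs held 9.22, 16.0 and 18.9 CPM in eNOS+/+ and 5.98, 29.3 and 14.0 CPM in eNOS-/-. The same replicates held 157, 198, 220, 144, 109 and 146 CPM in Structural ECs. Every Structural value thus lay above every Tip value, and the ratio within a replicate ranged from 3.72 to 24.1. Proliferative ECs lay between them in all 6 replicates, although in eNOS-/- replicate 1 their 141 CPM nearly reached the 144 CPM of Structural ECs.

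Bmx was low outside Structural ECs. It reached 34.7 ± 20.8 CPM there, from 18.7 to 71.8 CPM, against 5.98 ± 8.10 CPM in Tip ECs and 8.73 ± 5.17 CPM in Proliferative ECs. Tip ECs had only 8 Bmx UMIs in all and were at 0 in 2 replicates. Structural ECs were highest in 6 of 6 replicates for Gja4 and Bmx, as they were for 1.41% of the 9765 genes with at least 60 UMIs in ECs. They were lowest in 6 of 6 for none of the members, and for 0.471% of genes. The plot of levels by label shows the narrow gap for Bmx in eNOS-/- replicate 3, at 18.7 CPM in Structural and 14.0 CPM in Tip ECs.

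Efnb2 was spread more evenly. Its mean was 110 ± 24.5 CPM in Structural ECs, with 71.2 ± 33.8 CPM in Tip and 62.1 ± 27.5 CPM in Proliferative ECs. Structural ECs were above Tip ECs in 6 of 6 replicates, but the ranges overlapped, from 81.0 to 145 CPM against 37.4 to 134 CPM. Tip and Proliferative ECs did not differ beyond their spread. Unc5b had a different order, with 103 ± 56.9 CPM in Tip, 92.9 ± 20.8 CPM in Structural and 45.7 ± 25.3 CPM in Proliferative ECs. Tip ECs ranged from 28.1 to 187 CPM and were highest in 4 of 6 replicates, so only the low Proliferative level, below Structural ECs in 6 of 6 replicates, was regular.

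Gja5 and Gkn3 were near the limit of detection. Gja5 had 33 UMIs in all ECs, 25 of them in Structural ECs, where it ranged from 0 to 14.8 CPM. Gkn3 had 23 UMIs, all in 14 Structural ECs of eNOS+/+ replicate 3 and eNOS-/- replicates 1 and 2. In ECs drawn down to 500 UMIs per cell, 0 of 1091 Tip ECs held a Gkn3 UMI, which allows a share of up to 0.275%, and 0 of 807 Proliferative ECs, which allows up to 0.372%. Gkn3 in Structural ECs, at 0.243% of 1647 cells, was therefore not separable from the other labels at this depth. Without thinning, it was found in 14 of 3335 Structural ECs, or 0.420% (Wilson interval 0.250 to 0.703%). It was found in 0 of 1428 Tip ECs (up to 0.210%) and 0 of 1162 Proliferative ECs (up to 0.258%). The upper ends of the Wilson intervals were 0.268% in Tip and 0.330% in Proliferative ECs. Both lay inside the Structural interval, so the labels were not separated at full depth either. Structural ECs were shallower, with a median of 491 UMIs against 1007 in Tip and 963.5 in Proliferative ECs.

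Among the venous genes, Vwf was the most regular. It stood at 519 ± 84.8 CPM in Tip, 219 ± 42.4 CPM in Structural and 159 ± 52.0 CPM in Proliferative ECs. Tip ECs held 539, 449 and 574 CPM in the eNOS+/+ replicates and 652, 467 and 435 CPM in the eNOS-/- replicates. Every one of these lay above every Structural value (162 to 277 CPM) and every Proliferative value (67.6 to 207 CPM). Vwf was highest in Tip ECs in 6 of 6 replicates, as were 3.67% of genes, and lowest in Proliferative ECs in 6 of 6, as were 1.71%. Platelets also make Vwf, and platelet markers summed to 4.21 to 56.1 CPM in Tip ECs and 12.1 to 89.7 CPM in Structural ECs.

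Slc38a5 ran the other way. Its mean went from 180 ± 79.6 CPM in Tip ECs over 292 ± 68.2 CPM in Structural ECs to 455 ± 154 CPM in Proliferative ECs. By replicate, Proliferative ECs held 411, 454 and 426 CPM in eNOS+/+ and 329, 357 and 755 CPM in eNOS-/-. They were highest in 6 of 6 replicates, as for 4.51% of genes, although the range of Structural ECs (217 to 387 CPM) overlapped theirs. Ephb4 was lowest in Tip ECs in 6 of 6 replicates, as were Gja4 and 3.61% of genes. It stood at 37.2 ± 13.4 CPM in Tip ECs, with 67.7 ± 15.5 CPM in Structural and 73.8 ± 16.3 CPM in Proliferative ECs, which did not differ beyond their spread. Nr2f2 stood at 65.8 ± 48.4 CPM in Tip, 117 ± 49.1 CPM in Structural and 145 ± 27.8 CPM in Proliferative ECs. Tip ECs were lowest in 5 of 6 replicates, the exception being eNOS-/- replicate 3 with 161 CPM, and Structural and Proliferative ECs overlapped.

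**Figure D1:**
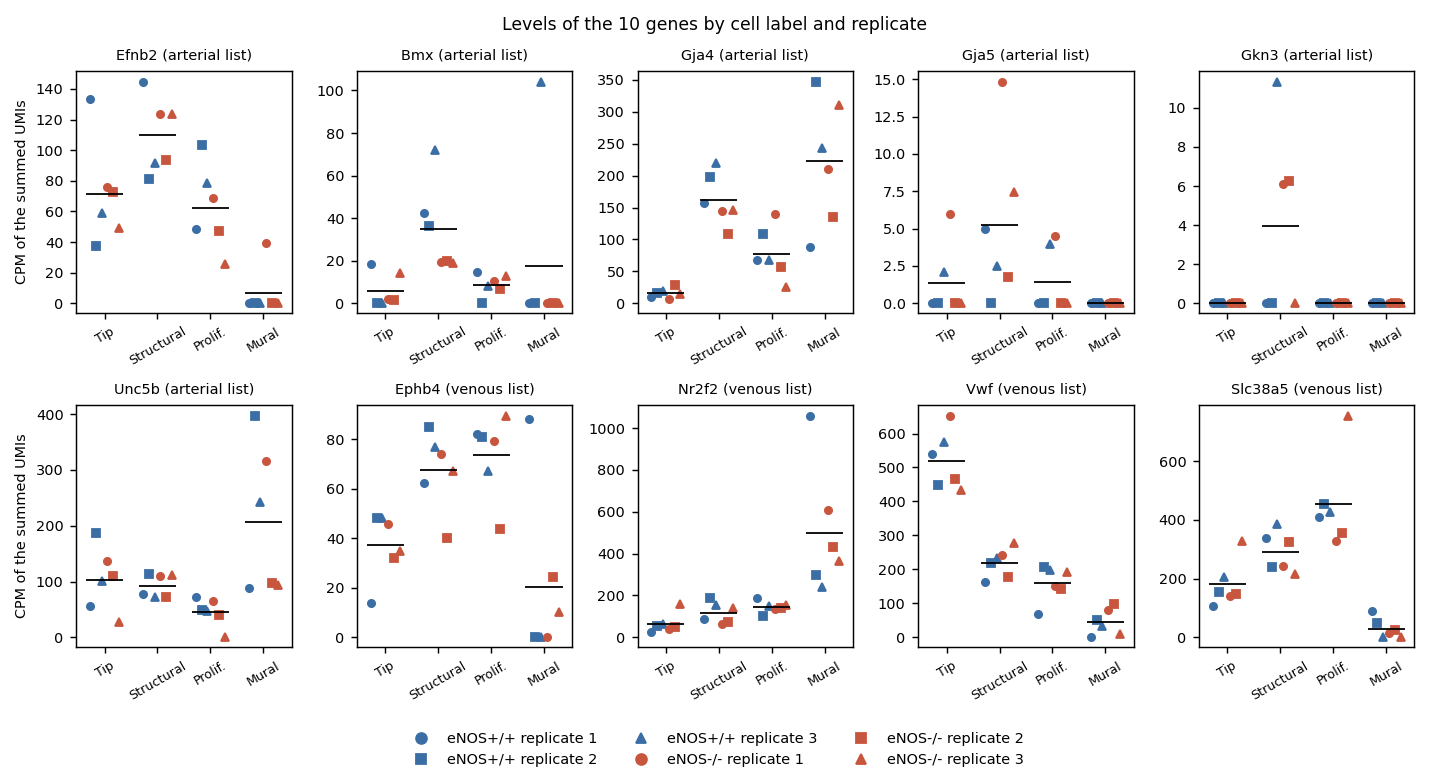
Level of each of the 10 genes (vertical axis, CPM of the summed UMIs, a separate scale per gene) in Tip, Structural and Proliferative ECs and mural cells (horizontal axis), with 1 point per replicate, blue for eNOS+/+ and red for eNOS-/-, and a black line at the mean of 6 replicates. Gja4 points of Structural ECs (109 to 220 CPM) all lie above those of Tip ECs (5.98 to 29.3 CPM), and Vwf points of Tip ECs (435 to 652 CPM) all lie above those of the other labels.

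The share of cells with a UMI gave a similar picture at equal depth. Thinning every cell to 500 UMIs left out 2380 ECs (686 of eNOS+/+ and 1694 of eNOS-/-) and kept 3545. Vwf was found in 21.4% of Tip ECs, 8.80% of Structural ECs and 5.58% of Proliferative ECs, and in 0 of 421 rods, which allows up to 0.713%. Gja4 was found in 0.642% of Tip ECs (95% Wilson interval 0.311 to 1.32%), 6.31% of Structural ECs (5.24 to 7.59%) and 3.72% of Proliferative ECs (2.62 to 5.26%), and in 0.475% of rods (0.13 to 1.72%), photoreceptors that should lack it. The intervals of Tip ECs and rods overlapped, so these shares were not separated at this depth. The kept rods had a median of 657 UMIs before thinning and the kept ECs 1406. Without thinning, Gja4 was found in 2.03% of Tip ECs, 7.80% of Structural ECs, 7.06% of Proliferative ECs and 0.464% of rods, and Vwf in 39.8%, 14.8%, 16.5% and 1.19% in the same order. Nr2f2 was found in 2.93% of Tip ECs, 5.65% of Structural ECs, 7.56% of Proliferative ECs and 0.713% of rods, and without thinning in 6.16%, 8.31%, 16.2% and 0.464%. Intervals and limits here cover counting error only.

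Nr2f2, Gja4 and Unc5b were also counted in mural cells. Nr2f2 stood at 1060, 298 and 243 CPM in the mural cells of the eNOS+/+ replicates and at 606, 429 and 363 CPM in those of the eNOS-/- replicates. The value of 1060 CPM rests on 12 UMIs in 3 cells. Without that replicate the mean was 388 ± 141 CPM (SD, n = 5), and each of the 5 values was above every EC sum of Nr2f2. Gja4 stood at 223 ± 99.7 CPM in mural cells, from 88.3 to 347 CPM, which overlapped Structural ECs, and at 249 ± 83.7 CPM without that replicate, whose 88.3 CPM rest on 1 UMI. Unc5b stood at 206 ± 133 CPM, from 88.3 to 397 CPM.

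Most Nr2f2 UMIs of mural cells sat in cells with at least 2 mural markers, but such cells held most UMIs of nearly every mural sum. Of the 141 Nr2f2 UMIs, the cells with at least 2 mural markers held 10 of 12, 4 of 6, 6 of 7, 45 of 46, 33 of 35 and 35 of 35 by replicate. The same cells held 29.2%, 84.3%, 92.8%, 97.7%, 93.1% and 97.1% of all UMIs of these sums, so the counts do not set Nr2f2 apart from other genes. In thinned mural cells, Nr2f2 was found in 17.7% (12.4 to 24.7%) and Gja4 in 10.9% (6.81 to 16.9%) of 147 cells. The 26 thinned mural cells with Nr2f2 held on average 0.615 of the 11 EC markers, and the 121 without it held 0.835. The 16 cells with Gja4 held 1.19 EC markers and the 131 without it 0.748. Bmx was at 0 in 5 of 6 mural sums, Efnb2 in 5, and Gja5 and Gkn3 in all 6. Slc38a5 had 5 and Ephb4 4 UMIs in all mural cells.

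Within single ECs, Gja4 was found together with Bmx, Unc5b and Efnb2 more often than their separate shares give. Co-detection was counted in the 3545 thinned ECs and set beside the number that the product of the 2 shares gives, summed over the replicates. Bmx and Gja4 were both found in 10 ECs where the product gave 1.30, a ratio of 7.68 (95% exact Poisson interval of the count over the product 3.68 to 14.1). Of the 33 ECs with Bmx, 30.3% held Gja4, against 3.73% of the others. Gja4 and Unc5b were found together in 20 ECs where the product gave 5.74 (ratio 3.49, 2.13 to 5.38). Efnb2 and Gja4 were found together in 13 ECs where the product gave 4.58 (ratio 2.84, 1.51 to 4.86). These 3 pairs were above the product in 5, 4 and 5 of the 6 replicates in the same order. Of the 15 arterial pairs, 6 had a product of at least 1. All 6 were above it, but the 3 without Gja4 had intervals that held 1, such as Efnb2 with Unc5b at 6 ECs against 4.50 (1.33, 0.489 to 2.90). Pairs of other genes were not counted in this way, so no share over all genes stands beside this. The intervals take cells as separate, although many barcodes of a replicate differed only in their last base.

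Arterial with venous pairs were mixed. Of 17 pairs with a product of at least 1, 7 lay above and 10 below. Gja4 with Slc38a5 was the lowest of those with an interval below 1, with 6 ECs where the product gave 17.1 (ratio 0.352, 0.129 to 0.765), and it was above the product in 0 of 6 replicates. Unc5b with Slc38a5 had 6 ECs against 16.3 (0.367, 0.135 to 0.800), also above in 0 of 6. Gja4 with Nr2f2 had 3 ECs against 7.35, but its interval of the ratio, 0.0842 to 1.19, held 1. Unc5b with Vwf was the only pair of the 17 with an interval above 1, with 31 ECs against 16.0 (1.93, 1.31 to 2.75). Both of these genes were highest in Tip ECs by mean, and with the product taken within each EC label as well as each replicate, 7 pairs lay above and 10 below as before. The intervals below 1 were not kept in every setting. With 1 cell per barcode family 0 arterial with venous pairs had an interval below 1, and at full depth also 0.

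For the venous pairs, no excess or lack was detectable at this depth. Ephb4 with Nr2f2 had 10 ECs against 5.13 (1.95, 0.935 to 3.59), Nr2f2 with Slc38a5 29 against 23.0 (1.26, 0.845 to 1.81) and Vwf with Slc38a5 41 against 52.1 (0.787, 0.565 to 1.07). Of the 6 venous pairs 4 lay above the product, and every interval held 1. In all, 63.0% of thinned ECs held none of the 10 genes, 8.27% held arterial genes only, 26.2% venous genes only and 2.57% (91 cells) both. The cells with both kinds were 2.47% of Tip ECs, 3.34% of Structural ECs and 1.12% of Proliferative ECs. With 1 cell per barcode family, Bmx with Gja4 had 5 ECs and 2 of the 3 arterial pairs that still had a product of at least 1 were above it.

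**Figure D2:**
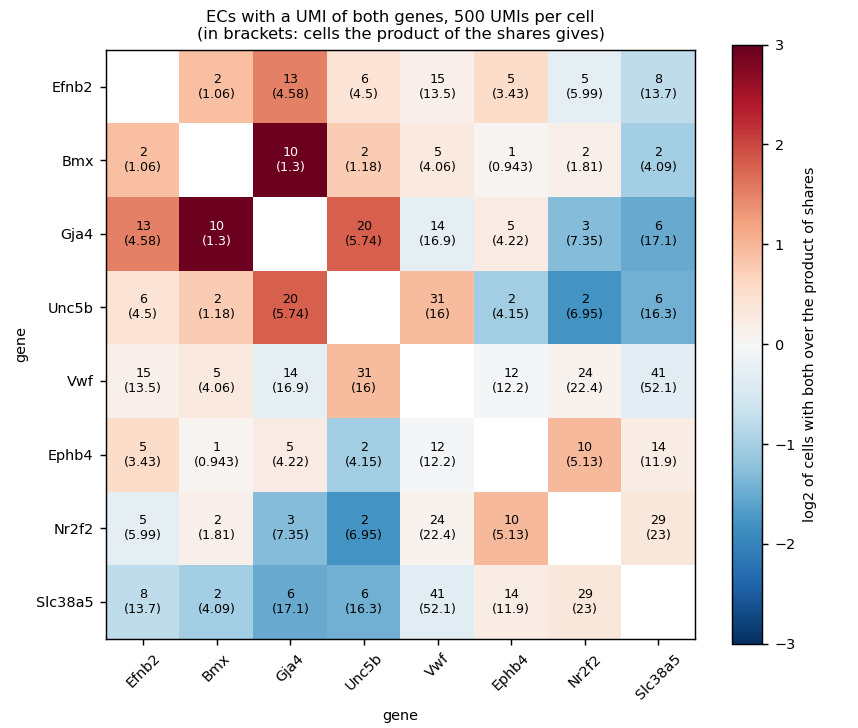
ECs thinned to 500 UMIs that hold a UMI of both genes of a pair (upper number) and the number the product of the shares gives (in brackets), for 8 genes on both axes, with colour for the log2 of the ratio (red above, blue below the product). Red fills the arterial pairs around Gja4, with 10 against 1.30 for Bmx, and blue the pairs of Gja4 and Unc5b with Slc38a5, at 6 against 17.1 and 6 against 16.3.

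The genes whose detection was most like each member's were named by the phi coefficient over thinned ECs, averaged over replicates, among 6713 genes found in at least 1% of them. Phi is a correlation of presence and absence, given here without a test. For Gja4 they were Ptn (0.227, with 36 of the 141 Gja4 cells), Cxcl12 (0.209, 50 cells), a chemokine of arterial ECs, and Dkk2 (0.186, 20 cells). Ptn also came first for Bmx (0.164, 12 of 33 cells), before Katna1 and Abcd4 (3 cells each). Cxcl12 came first for Efnb2 (0.118, 27 of 115 cells), before Mal (12 cells) and Ipo8 (7 cells). For Vwf they were Lamb1 (0.141), a laminin chain of basement membranes, Fn1 (0.113), fibronectin, and Pmepa1 (0.103). For Slc38a5 they were Bsg (0.148), a partner of lactate transporters at the blood-brain barrier, Spock2 (0.101) and Ddx58 (0.0880). For Unc5b (Ccdc9b, Mta3, Mcph1), Ephb4 (Foxk1, Pde7b, Wdsub1) and Nr2f2 (Cdc20, 6030458C11Rik, Med6) the leading genes shared at most 13 cells with the member. Gja5, in 11 thinned ECs, and Gkn3, in 4, were too rare for this.

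The clusters of the annotation divided the genes more sharply than the 3 EC labels did. Among clusters with at least 100 ECs, clusters 11 and 15 had the highest Gja4 levels, 511 and 419 CPM against at most 50.1 CPM elsewhere, and are described together for that reason, a choice made after their values were seen. They held 698 ECs, 11.8% of all ECs and 16.3% of their UMIs. They held 75.7% of the Gja4 UMIs of ECs, 75.2% of those of Bmx, 95.7% of Gkn3, 66.7% of Gja5, 39.8% of Efnb2 and 32.8% of Unc5b. Of the venous genes they held 17.7% of the Ephb4 UMIs, 13.7% of Vwf, 8.68% of Nr2f2 and 7.76% of Slc38a5. Most of their cells were labelled Structural ECs, 270 of cluster 11 and 278 of cluster 15, and the others Tip (51 and 20) or Proliferative (55 and 24).

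Besides Gja4, by which these 2 clusters were picked, Bmx, Efnb2 and Unc5b were higher and Nr2f2 and Slc38a5 lower there in every replicate. The share of all genes with the same direction in every replicate was not counted. Bmx stood at 84.0, 93.5 and 187 CPM there in eNOS+/+ and at 62.0, 54.2 and 23.0 CPM in eNOS-/-. The other ECs of the same replicates held 17.6, 3.44, 4.84, 2.61, 3.86 and 14.9 CPM. Efnb2 stood at 220 ± 56.6 CPM inside and 64.6 ± 15.9 CPM outside, and Unc5b at 176 ± 66.1 and 67.7 ± 14.9 CPM, both higher inside in 6 of 6 replicates. Nr2f2 was lower inside in 6 of 6 replicates, at 51.8 ± 23.0 CPM against 120 ± 31.5 CPM. Slc38a5 was lower in 6 of 6, at 142 ± 54.2 CPM against 328 ± 39.4 CPM. The 2 clusters differed in it, with 47.6 CPM in cluster 11 and 258 CPM in cluster 15, which was above 6 of the other 11 clusters. Low levels of these 2 venous genes were not particular to them, since cluster 14 held 19.0 CPM of Nr2f2 and 5.19 CPM of Slc38a5. Vwf stood at 236 ± 58.9 CPM inside and 298 ± 41.3 CPM outside and was higher inside in 1 of 6 replicates. Ephb4 stood at 66.2 ± 24.1 and 59.8 ± 12.2 CPM and was higher inside in 4 of 6. The means of both lay within the spread between replicates. The clusters were made from the same cells, so the differences are a description.

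**Figure D3:**
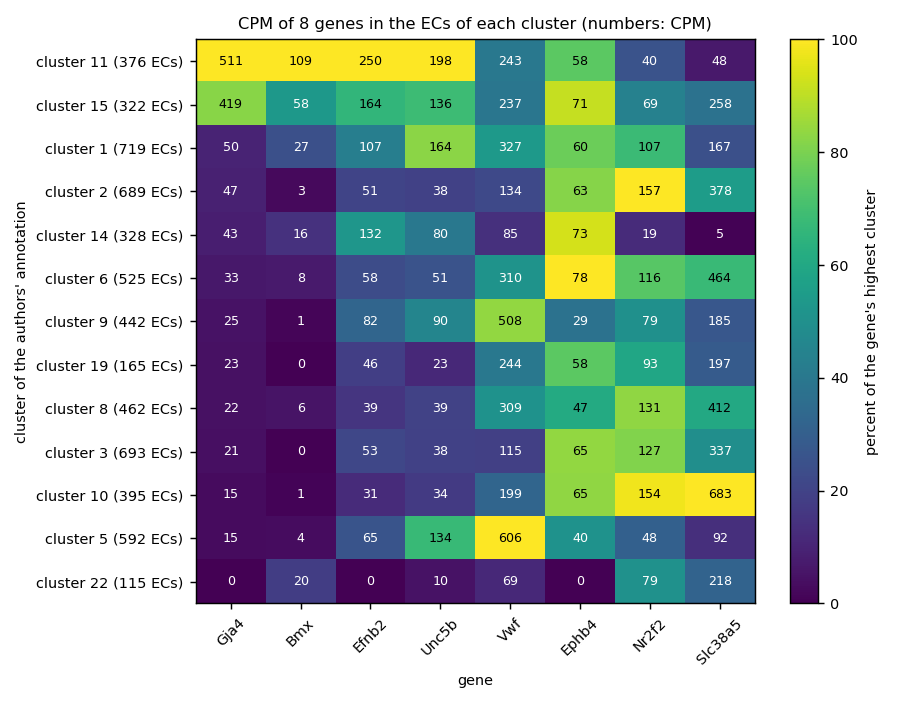
Level of 8 genes (columns) in the ECs of each annotated cluster with at least 100 ECs (rows, in order of Gja4), with the CPM printed and the colour showing the percent of the gene's highest cluster. Cluster 11 is the highest for Gja4 (511 CPM), Bmx, Efnb2 and Unc5b and the lowest but 1 for Slc38a5, cluster 5 is highest for Vwf and cluster 10 for Slc38a5.

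Between genotypes, none of the 10 genes passed an adjusted p of 0.05. Within Structural ECs, Bmx, Gja4 and Nr2f2 had lower means in eNOS-/- with unadjusted p under 0.05, and none passed adjustment over all genes. In Tip and Proliferative ECs 0 members had an unadjusted p under 0.05. The question of the comparison is whether loss of eNOS changes the expression of these genes within each EC label at this stage of OIR. UMIs were summed per replicate and compared by the quasi-likelihood test of edgeR, with p-values adjusted by the Benjamini-Hochberg procedure over every gene tested, and fold changes are eNOS-/- over eNOS+/+. Nothing in the labels says that the pools of a group came from separate litters, so p-values measure the spread between these pools.

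Of the 10 genes, 8 passed the filter on low counts in all ECs and in Structural ECs, 6 in Tip ECs and 7 in Proliferative ECs. Gja5 and Gkn3 passed in none, Bmx failed in Tip and Proliferative ECs and Gja4 in Tip ECs. edgeR called 0 members in each of the 4 comparisons, and DESeq2 called 0. Over all genes edgeR called 2 of 9483 genes in all ECs (0.0211%), 1 of 5510 in Tip ECs (0.0181%), 2 of 7577 in Structural ECs (0.0264%) and 1 of 4607 in Proliferative ECs (0.0217%). These were AI506816, lower in eNOS-/- in all 4, and Igkc, higher in all ECs and Structural ECs, both named after their values were seen. At an unadjusted p under 0.05 there were 1, 0, 3 and 0 members in all, Tip, Structural and Proliferative ECs, beside 5.78%, 4.95%, 5.52% and 6.38% of all genes. The median log2 fold change of the members tested was -0.16, -0.01, -0.33 and -0.07 in the same order, beside 0.01, 0.00, 0.01 and 0.02 for all genes.

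Bmx in Structural ECs stood at 42.4, 36.4 and 71.8 CPM in eNOS+/+ and at 19.2, 19.7 and 18.7 CPM in eNOS-/-. All eNOS-/- values lay below all eNOS+/+ values. The log2 fold change was -1.48 (edgeR, unadjusted p = 0.00114, adjusted p = 0.659, standard error 0.37). The values rest on few molecules: 17, 9 and 57 UMIs in 8, 3 and 29 cells of eNOS+/+, and 22, 22 and 5 UMIs in 20, 18 and 4 cells of eNOS-/-. Without ECs that held mural markers the levels were 42.4, 36.7 and 72.8 CPM against 19.4, 19.8 and 30.9 CPM, so that eNOS-/- replicate 3 lay nearer to eNOS+/+ but still below it (log2 fold change -1.38, adjusted p = 0.673, edgeR). The share of Structural ECs with a Bmx UMI, without thinning, overlapped between genotypes, at 2.92%, 1.23% and 4.80% against 2.99%, 1.33% and 2.15%. These shares are not at equal depth. The median UMIs per Structural EC were 487.5, 594.5 and 720 in eNOS+/+ and 906, 308.5 and 567.5 in eNOS-/-. The most Bmx UMIs in 1 cell were 7, 4 and 10 in eNOS+/+ and 2, 2 and 2 in eNOS-/-. In all ECs the levels were 29.1, 13.7 and 38.7 CPM against 13.0, 11.1 and 16.4 CPM, which overlap, and the log2 fold change there was -1.17 (edgeR, adjusted p = 0.824, standard error 0.39).

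Gja4 in Structural ECs stood at 157, 198 and 220 CPM in eNOS+/+ and at 144, 109 and 146 CPM in eNOS-/-. The groups did not overlap, by a gap of 157 to 146 CPM. Its log2 fold change was -0.57 (edgeR, unadjusted p = 0.0330, adjusted p = 0.868, standard error 0.24). Without the ECs that held mural markers, eNOS-/- replicate 3 stood at 160 CPM and the groups overlapped. In all ECs Gja4 stood at 95.8, 116 and 132 CPM against 113, 73.0 and 88.0 CPM (log2 fold change -0.34, adjusted p = 0.908). In Proliferative ECs it ranged from 67.0 to 108 CPM in eNOS+/+ and from 25.6 to 141 CPM in eNOS-/- (0.16, adjusted p = 0.984). Of the 8 members tested in Structural ECs, Bmx and Gja4 were the 2 that were lower without overlap, beside 4.79% of all genes, and 0 were higher, beside 5.74%. No member was lower or higher without overlap in Tip ECs (5.41% and 4.94% of genes), in Proliferative ECs (5.43% and 5.36%) or in all ECs (5.00% and 5.39%).

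Nr2f2 in Structural ECs stood at 87.3, 186 and 154 CPM in eNOS+/+ and at 63.7, 75.1 and 138 CPM in eNOS-/-. The groups overlapped through eNOS-/- replicate 3. The log2 fold change was -0.72 (edgeR, unadjusted p = 0.0479, adjusted p = 0.895, standard error 0.34). The 38 Structural ECs of that replicate with mural markers held 39.4% of its Structural UMIs. They held 23 of its 37 Nr2f2 UMIs, which is above that share, and 13 of 39 Gja4 UMIs and 11 of 30 Unc5b UMIs, which are below it. Leaving out ECs with at least 2 mural markers was an alternative chosen after the data were seen. It still left 611 CPM of mural markers in the Structural ECs of the replicate. In this setting the replicate stood at 86.4 CPM and the log2 fold change was -0.995 (edgeR, adjusted p = 0.686, standard error 0.30). Without the replicate it was -1.06 (adjusted p = 0.225). In all ECs Nr2f2 stood at 97.0, 120 and 125 CPM against 78.6, 83.7 and 147 CPM (-0.21, adjusted p = 0.969).

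**Figure D4:**
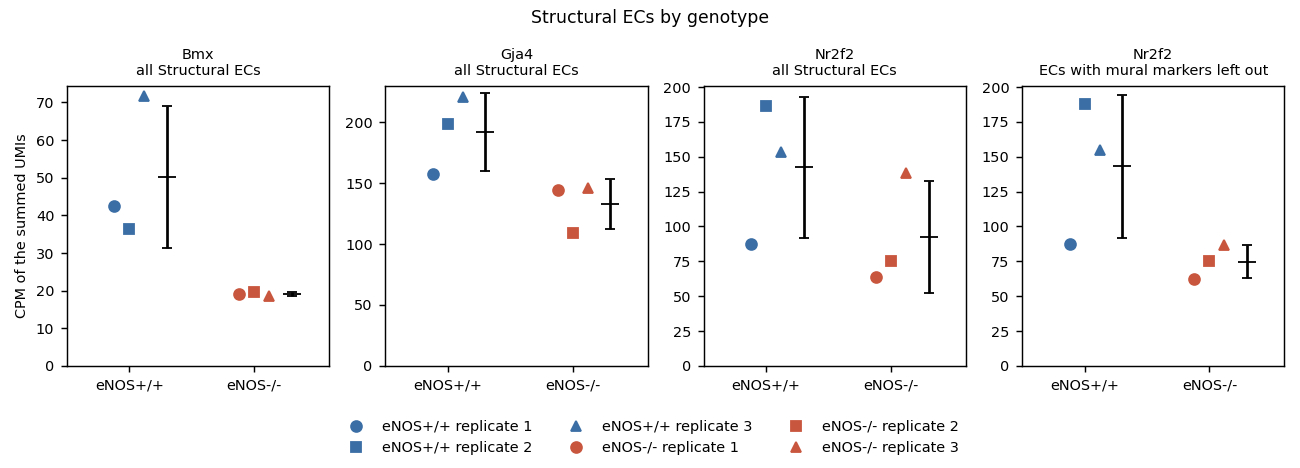
Levels of Bmx, Gja4 and Nr2f2 in Structural ECs (vertical axis, CPM of the summed UMIs) by genotype, with 1 point per replicate and the mean ± SD of 3 replicates in black, and in the last panel Nr2f2 with ECs that held at least 2 mural markers left out. Bmx and Gja4 points of eNOS-/- lie below those of eNOS+/+, and the Nr2f2 point of eNOS-/- replicate 3 moves from 138 to 86.4 CPM.

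The other 5 genes did not move in 1 direction in Structural ECs. Slc38a5 stood at 339, 239 and 387 CPM against 243, 326 and 217 CPM (log2 fold change -0.32, adjusted p = 0.938), and Ephb4 at 62.4, 85.0 and 76.8 CPM against 74.2, 40.2 and 67.3 CPM (-0.34, adjusted p = 0.968). Efnb2 stood at 145, 81.0 and 92.0 CPM against 124, 93.9 and 123 CPM (0.06), Unc5b at 77.4, 113 and 73.1 CPM against 110, 71.5 and 112 CPM (0.15) and Vwf at 162, 219 and 234 CPM against 243, 179 and 277 CPM (0.14). All 5 overlapped between genotypes. In Tip ECs Nr2f2 stood at 27.7, 53.4 and 63.1 CPM against 37.9, 51.7 and 161 CPM (0.44, adjusted p = 0.985). Slc38a5 in Tip ECs stood at 106, 155 and 204 CPM against 140, 148 and 330 CPM (0.25). For both, eNOS-/- replicate 3 held the highest value and the others overlapped, and both log2 fold changes were -0.15 without it. In all ECs Vwf stood at 238, 280 and 334 CPM against 305, 255 and 309 CPM, a log2 fold change of 0.01 (adjusted p = 0.997).

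Whether the genotype effect differed between labels was tested in 1 fit over the 18 sums. edgeR called 0 of 7019 genes (0%) for Tip minus Structural and 0 (0%) for Proliferative minus Structural, with 3.92% and 3.26% of genes at an unadjusted p under 0.05. Among the 8 members tested, Nr2f2 was the 1 with an unadjusted p under 0.05 in each. The difference of its log2 fold changes was 1.11 for Tip minus Structural (standard error 0.44, unadjusted p = 0.0147, adjusted p = 0.998) and 0.79 for Proliferative minus Structural (standard error 0.37, unadjusted p = 0.0403, adjusted p = 1). DESeq2 was not run for this fit.

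Other genes with known arterial, venous or capillary expression were listed alongside. Of 30 other arterial genes, 25 were tested in all ECs, and edgeR and DESeq2 called 0, with 3 at an unadjusted p under 0.05 and a median log2 fold change of -0.02. Of 24 other venous genes, 17 were tested, 0 were called by either tool, 4 had an unadjusted p under 0.05 and the median was -0.20. Of 12 capillary genes, 11 were tested, 0 were called by either tool, 2 had an unadjusted p under 0.05 and the median was 0.03. Over all genes in all ECs, 5.78% had an unadjusted p under 0.05 and the median was 0.01. In Tip, Structural and Proliferative ECs 0 genes of the 3 lists were called as well, with 0, 4 and 0 arterial, 1, 3 and 1 venous and 1, 0 and 1 capillary genes at an unadjusted p under 0.05, beside 4.95%, 5.52% and 6.38% of all genes.

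The 3 genes of smallest p in all ECs of each list were as follows. A small p favours groups that do not overlap, which 5.00% of all genes were with lower and 5.39% with higher values in eNOS-/-, so the overlap is given as a description. Plvap, which forms the diaphragms of fenestrated and venous endothelium, stood at 99.4, 99.0 and 65.0 CPM in eNOS+/+ and at 38.0, 25.6 and 43.0 CPM in eNOS-/-. The groups did not overlap, and the log2 fold change was -1.35 (edgeR, adjusted p = 0.433, standard error 0.27). It was called without the filter on low counts (-1.33) and without eNOS-/- replicate 3 (-1.46). Bgn, a proteoglycan of the vessel wall, stood at 109, 97.5 and 158 CPM against 209, 200.4 and 213 CPM (0.74, adjusted p = 0.751), and Smarca4, a chromatin remodeller, at 251, 277 and 253 CPM against 179, 188 and 149 CPM (-0.59, adjusted p = 0.809). Neither overlapped between genotypes.

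On the arterial list, Notch4, a Notch receptor of ECs, stood at 93.4, 107 and 114 CPM against 76.0, 71.7 and 71.7 CPM without overlap (-0.53, adjusted p = 0.824). Sox17, a SOX factor of arterial ECs, stood at 150, 239 and 271 CPM against 132, 108 and 201 CPM (-0.63, adjusted p = 0.840). Mgp, an inhibitor of calcification made in vessel walls, stood at 4.85, 25.9 and 47.3 CPM against 29.8, 36.7 and 801 CPM, so that a single library gave its log2 fold change of 3.26 (adjusted p = 0.824). That library is eNOS-/- replicate 3, without which it was 0.21, and without ECs that held mural markers it was 0.73. On the capillary list, the transferrin receptor Tfrc stood at 227, 190 and 183 CPM against 302, 357 and 225 CPM (0.56), the transporter Slc16a4 at 70.3, 39.6 and 50.6 CPM against 71.3, 98.5 and 81.9 CPM (0.64) and the lipid transporter Mfsd2a at 327, 358 and 368 CPM against 294, 281 and 250 CPM (-0.36). The last 2 did not overlap between genotypes.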

How the data were processed

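Drop-seq libraries of P14 OIR retinas, 3 replicates labelled eNOS+/+ and 3 labelled eNOS-/-, were analysed. Per the paper's methods, reads were aligned with kb-python to GRCm38, cells with few genes or many mitochondrial reads were dropped, and EC subtypes were defined by clustering within ECs. The authors deposited UMI counts for each gene and cell, not normalized, beside a table giving the replicate, genotype, cell type and cluster of every cell. Tools named in the submitters' processing notes are bcl2fastq and Seurat version 3, with GRCm38 as the build. The gene annotation used for counting is not given in the sources used here. ECs in the table number 2121 for eNOS+/+ and 3804 for eNOS-/-, where the design text gives 2044 and 3334.

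UMIs were summed for each label and replicate, and CPM are scaled to 1000000 UMIs of the sum. Genotypes were compared with edgeR 4.0.16 (filterByExpr, TMM, quasi-likelihood test, Benjamini-Hochberg adjustment, limit 0.05) and, as an alternative, DESeq2 1.42.0, in R 4.3.3. The fit was tested on simulated data in which 200 genes differed by 2 (log2). It recovered 174 of them in all ECs, 171 in Tip, 169 in Structural and 174 in Proliferative ECs, with 9, 9, 10 and 7 false calls. This change is larger than that of any member, the largest being -1.48 for Bmx in Structural ECs. Recovery of changes as small as those of the members was not tested. Cells were thinned at random to 500 UMIs without replacement and shallower cells left out (Python 3.11.15, pandas 2.3.3, numpy 2.4.6 and scipy 1.17.1), and plots were drawn with matplotlib 3.10.9. No doublet caller was run, since the deposited table marks all cells as singlets.

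Named were all 10 genes, Nos3, the 3 genes of smallest p in all ECs of each list, since 0 were called, and the 3 genes of highest phi for each member. The members and lists were chosen with earlier results of these data known. Alternatives were another tool, RLE size factors, no filter on low counts, a replicate block, leaving out each replicate, cells of at least 500 UMIs, 1 cell per barcode family, full depth and no mitochondrial genes. Leaving out ECs with at least 2 mural markers, mural means without eNOS+/+ replicate 1 and the product within labels were added after the data were seen.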

Additional observations from a re-analysis of the deposited data

Results flagged for a closer look

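A pair of values over the 6 replicates of a label were set apart from the others by more than Dixon's limit for 6 values, and both belonged to eNOS-/- replicate 3. Nr2f2 in Tip ECs stood at 161 CPM there, with the other replicates from 27.7 to 63.1 CPM. Slc38a5 in Proliferative ECs stood at 755 CPM there, with the others from 329 to 454 CPM. In all, 39 sets of 6 values were looked at, and chance flags about 1 in 20. This replicate had the fewest Tip ECs, 67, and Proliferative ECs, 35. Its Tip ECs held 238 CPM of mural markers, against 9.22 to 36.3 CPM in the other replicates, and its Proliferative ECs 307 CPM, against 0 to 31.5 CPM. Of its 67 Tip ECs, 0 held at least 2 mural markers, so its 23 Nr2f2 UMIs there could not be split by such cells. Of its 35 Proliferative ECs, 1 did, and it held 8.48% of all UMIs of the sum and 5 of the 59 Slc38a5 UMIs. The part of mural RNA in these values was not tested.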

How the results depend on the processing

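The 0 calls among the 10 genes held in all 559 alternative fits of a member, where the lowest adjusted p was 0.0938. The 400 levels by label under alternatives stayed within 1 SD, while 65 of 546 log2 fold changes of members changed sign. Bmx in Structural ECs was below 0 in 14 of 14 alternatives (-1.63 to -1.04, adjusted p 0.0938 to 1.00), Gja4 in 14 of 14 (-0.70 to -0.43) and Nr2f2 in 14 of 14 (-1.06 to -0.49). The number of genes called moved more. Without the filter on low counts it was 84 in all ECs, 8 in Tip, 74 in Structural and 10 in Proliferative ECs, and 5 and 1 for the differences between labels. With 1 replicate left out it ranged from 0 to 78 in all ECs, 0 to 25 in Tip, 0 to 28 in Structural and 0 to 73 in Proliferative ECs, each highest without eNOS-/- replicate 3. With cells of at least 500 UMIs it was 1, 2 and 0 in all, Tip and Structural ECs, with 1 cell per barcode family 1, 2, 0 and 8 in all, Tip, Structural and Proliferative ECs, with DESeq2 2 in Tip ECs, and without ECs that held mural markers 0 in Structural and 2 in Proliferative ECs. The same-numbered replicates of the 2 genotypes did not deviate together (correlations of 0.132, -0.070 and 0.114), so the numbers do not pair them. With the replicate number as a block, a replicate block, 11 genes were called in Structural and 3 in Proliferative ECs, and Gja4 in Proliferative ECs turned to -0.12. Other log2 fold changes near 0 turned as well. Vwf in all ECs was -0.086 with 1 cell per barcode family and -0.019 without ECs that held mural markers (-0.093 to 0.17 with 1 replicate left out). Efnb2 in Tip ECs was 0.0017 with cells of at least 500 UMIs (-0.39 to 0.44). Efnb2 in Structural ECs was -0.016 with those cells and -0.040 with 1 cell per barcode family (-0.072 to 0.34). Vwf in Structural ECs was -0.013 with 1 cell per barcode family (-0.0052 to 0.31 with 1 replicate left out). With 1 replicate left out, Nr2f2 in Tip ECs ranged from -0.15 to 0.87, Slc38a5 in Tip ECs from -0.15 to 0.58 and Gja4 in Proliferative ECs from -0.68 to 0.41. Members highest in the same label in every replicate fell from 4 to 1 (Vwf) with cells of at least 500 UMIs. Arterial pairs above the product were 11 of 11 at full depth and 2 of 3 with 1 cell per barcode family, against 6 of 6, and arterial with venous pairs 19 of 23 at full depth, against 7 of 17. At full depth, cells differ in UMIs. The cause of these changes was not tested. Depth limited Gja5 and Gkn3 in every comparison, Bmx in Tip and Proliferative ECs and Gja4 in Tip ECs, which failed the filter on low counts and were fitted only without it, where edgeR called 0 of them.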

Other observations

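Efnb2 and Nr2f2 were also counted in cells outside the vessels. Efnb2 had 21 UMIs in 7 of 184 cells of neuroglia, at 0 to 585 CPM over the 5 replicates that had such cells, and 23 UMIs in 17 of 157 Optc+ cells, at 0 to 170 CPM. Nr2f2 had 34 UMIs in 20 Optc+ cells, at 0 to 308 CPM (mean 122 ± 106 CPM, SD, n = 6), and was at 0 in 1 replicate. Bmx, Gja5 and Gkn3 had 0 UMIs in Optc+ cells and neuroglia.

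Of the thinned ECs, 52 held at least 2 arterial genes, 40 of them Structural ECs (2.43%), 6 Tip ECs (0.550%) and 6 Proliferative ECs (0.743%), and 5 held at least 3.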
